A study of Mus musculus with 2 samples.

Results

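Fos, Fosb, Jun, Junb, Egr1, Ier2, Atf3, Dusp1, Btg2 and Hspa1b are 10 genes that cells switch on within minutes of stimulation or of handling stress. They were followed in pancreatic islets from wild-type and PERK knockout mice. All probe sets annotated with 1 of these gene symbols were taken, which gave 14 of the 22690 on the array and all 10 genes of 12394 named ones. The rule itself uses symbols and no signal, though the genes were picked with earlier results of these data known.

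Islets of both genotypes were taken at 2 days of age and freed from the pancreas with collagenase P, and their RNA was hybridised to Affymetrix mouse 430A arrays, 1 per genotype. PERK, the product of Eif2ak3, sits in the membrane of the endoplasmic reticulum and phosphorylates eIF2 alpha when unfolded protein builds up there. Strains and sexes were mixed in the wild type, per its label, and the knockout label names neither. Allele, pooling of pups and the time from dissection to lysis are not known for either group from the sources at hand.

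Immediate early genes are transcribed without new protein synthesis, from promoters on which factors such as SRF, the ternary complex factors and CREB already sit. Fos and Jun family proteins pair through leucine zippers to form AP-1, a dimeric transcription factor, while Egr1 is a zinc finger factor. Dusp1, Btg2 and Atf3 belong to the same wave and act to limit it, and Hspa1b, an inducible HSP70 chaperone, is switched on by the heat shock factor HSF1. Enzymatic digestion of a tissue is known to induce many of them, so in islets their levels can carry the isolation procedure as well as the state of the cells. In beta cells several also respond to glucose and calcium.

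Stretches upstream of 5 genes are shown because they carry the elements through which this wave is read, and because those of Hspa1b and its neighbour copy Hspa1a show how alike the copies are. They lie before the transcript start, so no expression probe covers them. They are from RefSeq, build GRCm38.p6, written 5′ to 3′ on the gene's strand. In Fos, at chr12:85473751-85473872 on the plus strand, capitals mark 2 copies of TGACG, the core of the cyclic AMP response element bound by CREB and ATF proteins, and the TATA box. In Dusp1, at chr17:26508572-26508651, and Btg2, at chr1:134079278-134079357, both on the minus strand, they mark the full element TGACGTCA. In Hspa1b, at chr17:34959299-34959378, and Hspa1a, at chr17:34972217-34972296, both on the minus strand, they mark a match to the heat shock element.
Fos: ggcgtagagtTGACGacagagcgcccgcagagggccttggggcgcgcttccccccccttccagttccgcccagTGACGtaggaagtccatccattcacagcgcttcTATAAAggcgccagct
Dusp1: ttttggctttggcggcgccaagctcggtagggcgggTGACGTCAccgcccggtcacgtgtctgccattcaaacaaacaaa
Btg2: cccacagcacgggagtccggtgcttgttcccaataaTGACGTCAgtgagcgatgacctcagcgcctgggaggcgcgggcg
Hspa1b: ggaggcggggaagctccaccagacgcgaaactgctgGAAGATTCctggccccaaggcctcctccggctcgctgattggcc
Hspa1a: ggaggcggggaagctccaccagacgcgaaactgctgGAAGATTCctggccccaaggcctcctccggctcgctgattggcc

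RefSeq windows of 300 bases, from 250 before to 50 after the start, were matched for 8 of the 10 genes. The core TGACG, searched on both strands, was found in 6 of these 8, against 20.8% of 32851 windows. The full TGACGTCA, which contains the core on each strand, was found in 2 of 8 (Btg2 and Dusp1), against 1.79%. GAANNTTC or TTCNNGAA, the heat shock element as searched, was in 2 of 8 (Jun and Hspa1b), against 15.1%. TATAAA on either strand was in 2 of 8 (Fos and Junb), against 13.6%. The CArG box of SRF and the AP-1 site TGANTCA were in 0 of 8 of these windows, against 1.63% and 7.81%. A match is a description of letters, and a missing match speaks only of this window. Over the 250 bases before their starts, Hspa1a and Hspa1b were identical at 247 positions (98.8%).

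Values are signal intensities in arbitrary units, 1 array per genotype, so no p-value was computed and each ratio compares these 2 libraries. A floor was placed at the 40th percentile of all signals (39.8), lower signals were raised to it, and a probe set above it on both arrays is called measured. A gene's value is that of its brightest probe set. In place of a replicate error, probe sets of the same gene were compared. The SD of the difference in log2 ratio between a gene's 2 brightest measured probe sets was divided by the square root of 2. This SD between probe sets, which is for 1 ratio and not for a difference of 2, was 0.26 over 2599 genes. It was 0.29 in the dimmest quartile of these genes and 0.20 in the brightest quartile. This SD covers disagreement between probe sets on the same 2 arrays. It does not cover differences that probe sets of an array share, nor mice, litters or preparations. Eif2ak3 itself went from 117.7 to 58.7 on its brightest probe set, 2.01-fold lower, with its other 2 at the floor on both arrays. Which part of the gene is deleted is unknown from the labels. Islet hormones were bright on both arrays (Ins2, insulin, 5652 and 6163), and so were the acinar enzymes (Ctrb1, chymotrypsinogen, 7076 and 7178).

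Most of the immediate early genes differed little in signal between the libraries, and their signals ranged from near the floor (Atf3, Hspa1b) to among the brightest on the array (Fos, Egr1). Of the 14 probe sets, 13 were measured, with 11 higher and 2 lower in the knockout. Jun, Btg2 and Hspa1b count more than once among the higher ones, and the share over all probe sets was not computed. At gene level all 10 were measured: 8 were above equality, where 54.9% of 8134 measured genes lay, and 2 were below it (background 45.1%). Their median log2 ratio was 0.10, against 0.03 for all measured genes. A difference of at least 1.5-fold upward was found for 1 of 10 (background 4.19%) and of at least 2-fold upward for the same gene, Hspa1b (background 0.516%). That gene passed through the probe set with the highest mean signal, a mean its knockout value raised: the count was 0 with the probe set brightest in the wild type (a setting chosen after seeing the data), the median over probe sets, the second probe set or the floor at the 60th percentile. None was 1.5-fold lower (background 2.95%), and none 2-fold lower (background 0.652%). Over the array as a whole, 341 genes were at least 1.5-fold higher and 240 lower, a split that turned to 264 and 293 with quantile and 255 and 292 with loess normalisation. At 2-fold the split was 42 and 53, and 27 and 59 or 26 and 57 with these normalisations. With 1 of 10 genes past either limit, the counts do not set the group apart from the array as a whole. Summed over the brightest probe sets, signal came to 9387 for the wild type and 9509 for the knockout. RNA of whole islet preparations was measured, so more cells of a type and more transcript per cell cannot be told apart.

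**Figure D1:**
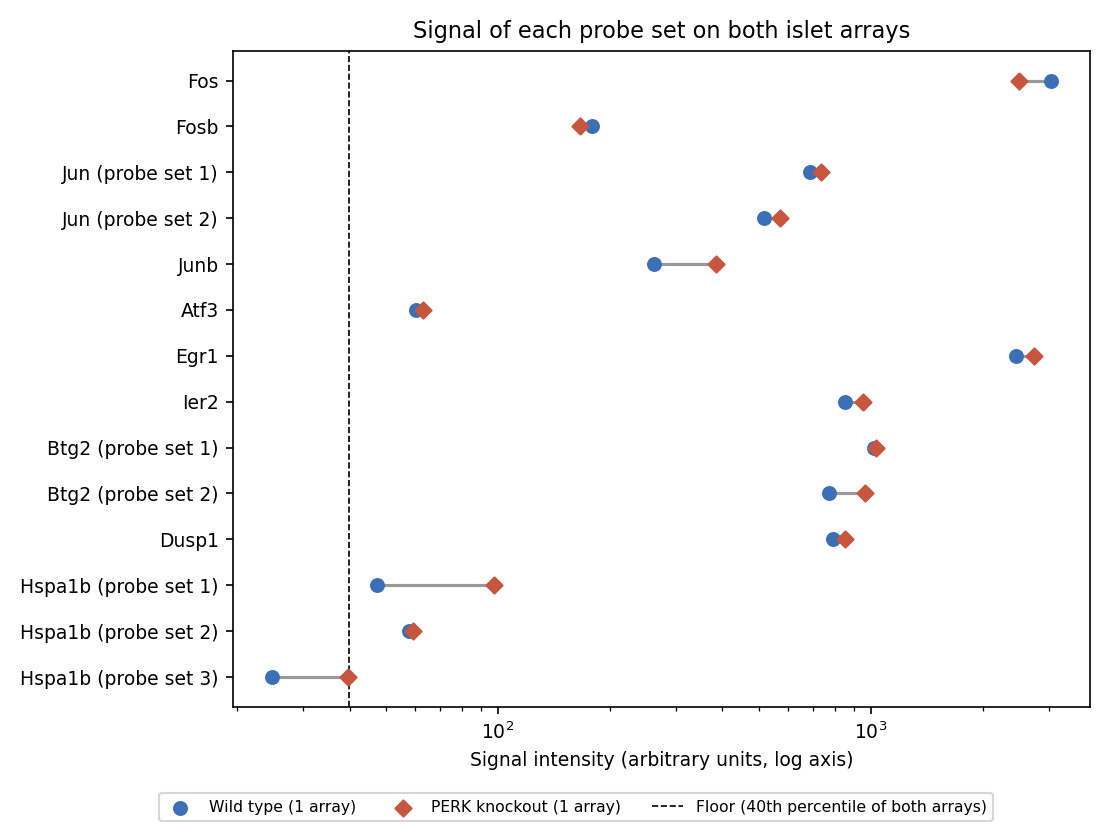
Signal intensity (arbitrary units, log axis) of the 14 probe sets for wild-type (circles) and PERK knockout islets (diamonds), with the floor of 39.8 as a dashed line. Circle and diamond nearly coincide for most probe sets, and the widest gaps on this axis are those of 2 Hspa1b probe sets, 1 of which stays under the floor, and of Junb.

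Fos, the AP-1 subunit that pairs with Jun proteins, went from 3038 in wild-type to 2495 in knockout islets. It was therefore 1.22-fold lower in the knockout, with a log2 ratio of -0.28, the lowest among the 10 genes. That ratio is larger than the SD between probe sets, 0.20 among the brightest genes and 0.26 over all, but 32.5% of all measured genes were at least as far from equality. Among the 2034 genes of like brightness, those in the same of 4 equal bins of mean signal, the share was 23.0%. Both arrays placed the Fos probe set among their brightest, at the 99.1st percentile of wild-type signals and the 98.8th of knockout signals. Its knockout signal was 30.3% of the maximum on that array.

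Fosb, a second Fos family subunit, was also lower, from 178.9 to 165.5 (log2 -0.11). Its ratio lay within the SD between probe sets, and 67.9% of measured genes were at least as far from equality. Both kept their sign under all alternative settings that gave a value, from -0.36 to -0.28 for Fos and from -0.15 to -0.10 for Fosb. Fos and Fosb have a single probe set each, above every floor used, so only a change of scaling or a pseudocount could move them.

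The Jun genes lay on the other side. Jun, the AP-1 subunit that can bind DNA as a homodimer or with Fos, went from 686.2 to 735.0 on its brightest probe set (log2 0.10) and from 517.4 to 570.4 on its second (0.14). These probe sets differed by 0.04, and 88.1% of genes with a second measured probe set disagreed by at least that much. Both ratios were smaller than the SD between probe sets.

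Junb, a Jun family member with weaker activating power than Jun, had the second largest ratio of the 10 genes. Its single probe set went from 261.6 in wild-type to 384.4 in knockout islets, 1.47-fold higher, with a log2 ratio of 0.56. This was just short of the 1.5-fold limit (log2 0.58), 2.31 times the SD between probe sets of like brightness (0.24), and matched or exceeded upward by 4.88% of measured genes. Among genes of like brightness, 136 of 2033 (6.69%) were at least as far from equality in either direction. The ratio stayed between 0.52 and 0.56 under all alternative settings that gave a value. With a single probe set above every floor used, only a change of scaling or a pseudocount could move it. No second probe set was there to check it.

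Atf3, a stress-induced member of the ATF family that is also a target of ATF4 downstream of PERK, was dim on both arrays, at 60.3 and 63.0. Its log2 ratio of 0.06 was among the smallest of the 10, and its sign turned with quantile and loess normalisation (-0.03 in each). With the floor moved to the 60th percentile (90.6), Atf3 was at the floor on both arrays and had no fold.

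Egr1, a zinc finger transcription factor induced by growth factors and glucose, was bright on both arrays. It went from 2446 in wild-type to 2734 in knockout islets, 1.12-fold higher (log2 0.16). Ier2, a nuclear protein of the immediate early wave, went from 853.6 to 951.4 (log2 0.16). The ratios of Egr1 and Ier2 were smaller than the SD between probe sets and were reached in either direction by 56.4% and 57.4% of measured genes. Fos and Egr1, the brightest probe sets of the group, thus had ratios of opposite sign.

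Among the genes that damp the response, Dusp1, the phosphatase that inactivates p38 and JNK kinases, went from 793.0 to 853.2 (log2 0.11). Btg2, an antiproliferative factor also induced by p53, went from 1021.6 to 1029.8 on its brightest probe set (log2 0.01). Its second probe set went from 771.5 to 962.7, a log2 ratio of 0.32. These probe sets disagreed by 0.31, and 34.7% of genes with a second measured probe set did so by at least that much. On the second one Btg2 would exceed the SD between probe sets. On the brightest it was level, and its sign turned with median centring (-0.02).

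**Figure D2:**
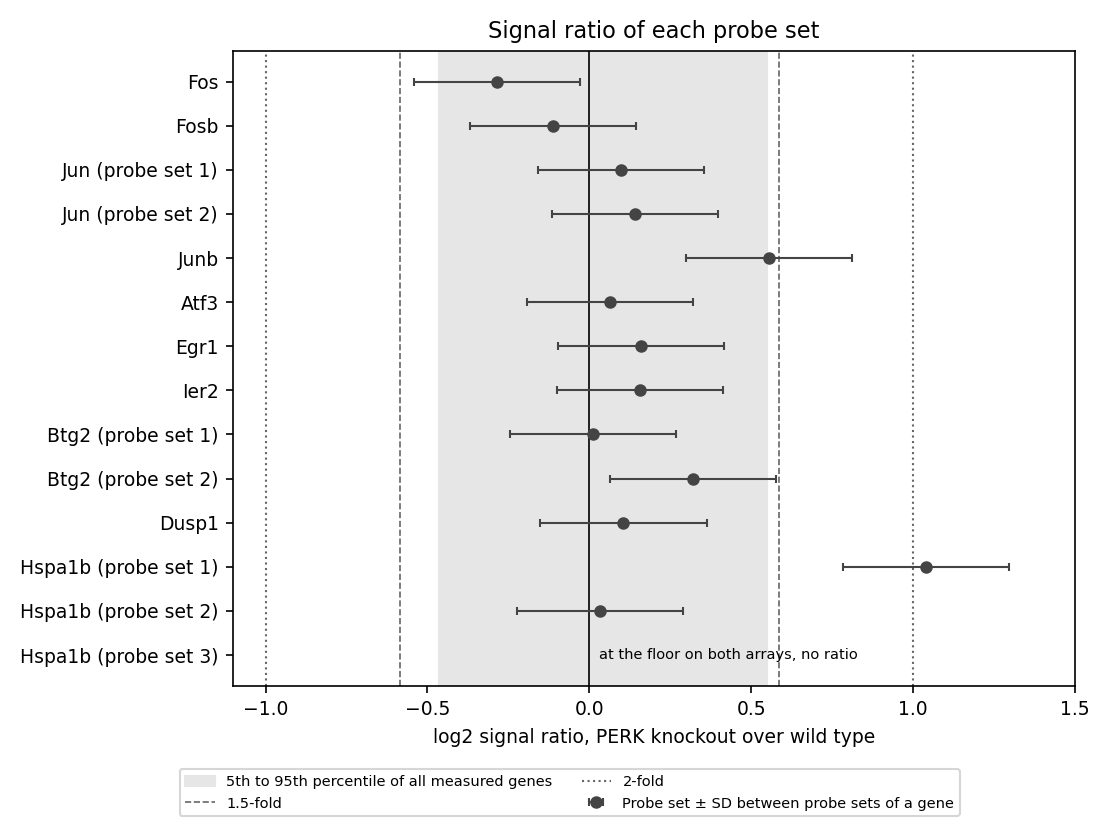
log2 ratio of PERK knockout over wild-type signal for each probe set, with bars of ± 0.26, the SD between probe sets of a gene, and the range from the 5th (-0.47) to the 95th (0.55) percentile of all measured genes in grey. The first Hspa1b probe set (1.04) lies outside the grey range and Junb (0.56) at its upper edge, and the second Hspa1b probe set sits at 0.03.

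Hspa1b, the inducible cytosolic HSP70, gave the largest ratio of the group and the widest range over settings. Its probe set with the highest mean signal went from 47.3 in wild-type to 97.3 in knockout islets, 2.06-fold higher, with a log2 ratio of 1.04. That was 3.56 times the SD between probe sets of like brightness (0.29), and 16 of 2034 genes of like brightness (0.787%) were as far from equality. A second probe set, of the type whose probes can match other genes, read 57.8 and 59.1 (log2 0.03). In the wild type this was the brighter of the pair, so the knockout signal decided which probe set stands for the gene. The third read 24.8 and 39.5, under the floor of 39.8 on both arrays, and so has no ratio there. With the floor at the 25th percentile (19.3) it was measured and 1.59-fold higher (log2 0.67). The 2 measured probe sets disagreed by 1.01, and 38 of 2599 genes (1.46%) with a second measured probe set disagreed by as much. The wild-type value of 47.3 also lay close to the floor of 39.8. Against a floor of 90.6 the knockout value was at least 1.07-fold higher.

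Genes picked for a high ratio on 1 probe set tend to give smaller ones on another by the picking alone. Of 13 genes, Hspa1b included, that were at least 2-fold higher on the brightest probe set and had a second measured one, 0 were again 2-fold higher on it and 12 were above equality. At 1.5-fold, 14 of 81 were again past the limit, with a median of 0.24 on the second probe set. Hspa1a, the near-identical copy beside Hspa1b, has its own probe set, which read 48.3 and 52.2 (log2 0.11). Signal from these copies may be shared, so the Hspa1b values are uncertain as to which copy they report.

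**Figure D3:**
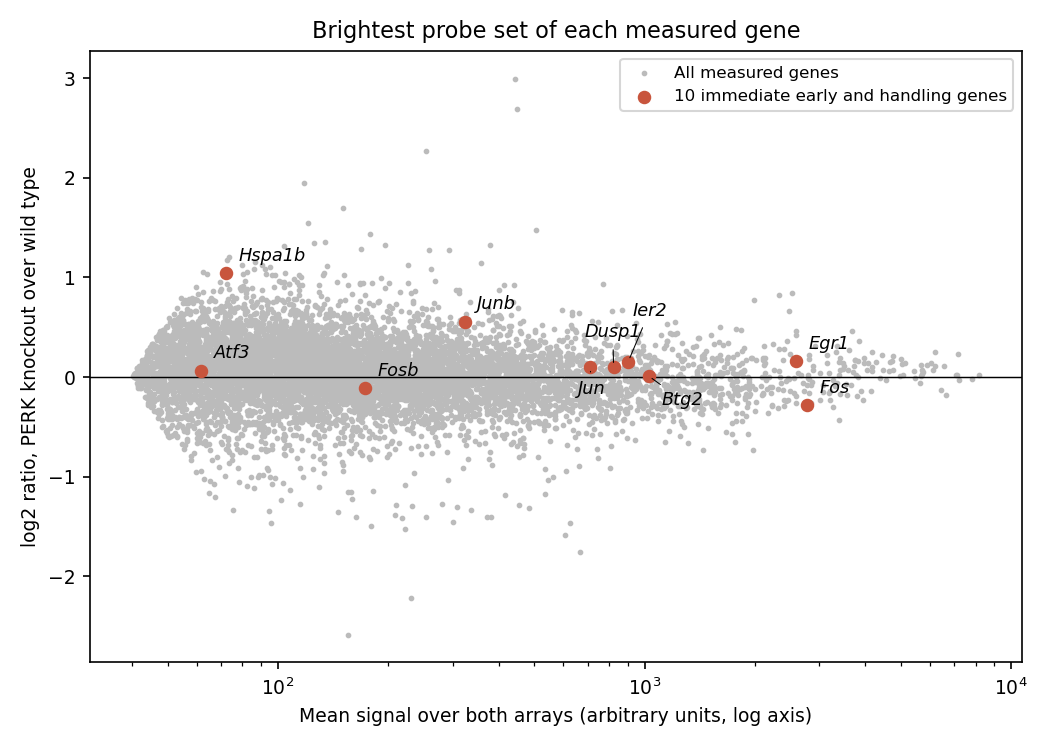
Mean signal over both arrays (arbitrary units, log axis) against the log2 ratio of PERK knockout over wild type for the brightest probe set of each of 8134 measured genes (grey), with the 10 genes in red. Apart from Hspa1b at 1.04 and Junb at 0.56, the red points lie between -0.28 and 0.16, within the bulk of genes of like brightness.

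No other measured gene on the list of heat shock proteins and cytosolic chaperones was 1.5-fold higher. Of 21 measured genes, 7 were above and 14 below equality (background 54.9% and 45.1%), with a median of -0.07. That median became 0.02 over the median of each gene's probe sets and 0.08 on second probe sets. Dnajb4, an HSP40 co-chaperone, was the single gene 1.5-fold lower, from 190.3 to 126.7 (log2 -0.59). The constitutive HSP70 Hspa8 went from 2926 to 2779 (-0.07), with 0.31 to 0.33 on its other 3 probe sets, and the mitochondrial chaperonin Hspd1 from 1392 to 1347 (-0.05). Over the list the ratios ran from -0.59 (Dnajb4) to 0.56 (Bag3, 70.4 to 103.7, 1.47-fold higher).

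On the list of other immediate early genes, 40 of 46 symbols were matched on the array and 31 genes were measured. Of the measured genes, 21 were above and 10 below equality (background 54.9% and 45.1%). Their median was 0.18, against 0.03 for all measured genes. At least 1.5-fold higher were 4 (background 4.19%), and 1 was at least 1.5-fold lower (background 2.95%). Gadd45b, a stress-induced adaptor of MAP kinase signalling, went from 139.2 to 235.5 (log2 0.76), with 0.26 and 0.56 on its other 2 probe sets. Bhlhe40, a helix-loop-helix repressor, went from 45.8 to 77.4 (0.76) and Egr3, a relative of Egr1, from 58.8 to 92.5 (0.65). Id3, an inhibitor of helix-loop-helix factors named after its value was seen, was the fourth, from 233.8 to 356.2 (0.61). Bhlhe40 and Egr3 lay near the floor of 39.8, and with the floor at the 60th percentile Bhlhe40 had no fold and Egr3 a bound of 0.03. Egr3 also fell short of the limit with quantile (0.56), loess (0.56) and the pseudocount (0.54). Id3 was just under it with median centring and the pseudocount (0.58 in each), and Gadd45b gave 0.56 over the median of its probe sets and 0.26 on its second.

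Nr4a1, an orphan nuclear receptor induced with Fos by calcium and cyclic AMP, was the only matched gene of that list at least 1.5-fold lower. It went from 422.2 to 238.6, a log2 ratio of -0.82 on its single probe set. A further 7 genes of that list crossed the floor, 4 upward and 3 downward. The largest of these, named after their values were seen, were Arc, at least 1.61-fold higher, and Trib1, at least 1.56-fold lower. Nr4a3 and Gem were at the floor on both arrays. Ccn1 and Ccn2 were listed under their older symbols, Cyr61 and Ctgf. They were therefore not matched and are left out of the counts and median of that list. Ccn1 was measured, with a mean signal of 335.5 over both arrays and a log2 ratio of -1.33, more than 2-fold lower. Ccn2 was also below equality, at -0.22.

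Measured relatives of the 10 genes on the AP-1 and ATF, MAP kinase phosphatase and BTG lists stayed under 1.5-fold on their brightest probe sets. Among other AP-1 and ATF genes, 9 were measured, 7 above and 2 below equality (background 54.9% and 45.1%). Their median was 0.03, against 0.03 for all measured genes, and none was at 1.5-fold. Jund, the third Jun gene, went from 547.9 to 612.0 (log2 0.16). Jun, Jund and Junb were thus above equality, as were 54.9% of measured genes, but Jun and Jund lay within the SD between probe sets, as did Fosb below equality. Fosl1 and Fosl2, the remaining Fos genes, were at the floor on both arrays. Atf4, the factor translated when PERK is active, went from 1201 to 967 (-0.31), with -0.06 on its other probe set. MAP kinase phosphatases other than Dusp1 had the highest median of these lists, 0.27 over 8 genes. Of these genes, 6 were above and 2 below equality (background 54.9% and 45.1%). Their ratios ran from -0.27 (Dusp14) to 0.58 (Dusp16, 1.49-fold higher), with none at 1.5-fold. Dusp6 gave 0.24 and Dusp3 -0.15, with 0.22 on the other probe set of Dusp3. The 3 measured relatives of Btg2 had a median of 0.06, which turned to -0.01 with quantile and loess normalisation, with Btg1 at 0.20 and Tob1 at -0.00.

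Lists of regulators and of neighbouring stress responses had medians between -0.13 and 0.19. Upstream kinases and promoter factors had a median of -0.13 over 14 genes, 8 of them below equality (background 45.1%). Elk4, a partner of SRF, was at -0.29 (0.19 on its other probe set) and the kinase Map2k1 at 0.12. The median of this list was 0.04 with a pseudocount in place of the floor and -0.20 with the probe set brightest in the wild type. Metal and oxidative stress genes had a median of 0.11 over 11. Catalase, Cat, went from 95.2 to 157.5 (0.73, and 0.38 on its other probe set). The metallothionein genes Mt1 and Mt2 gave 0.22 and 0.03. NF-kB and cytokine genes had a median of 0.19 over 7, with the chemokine gene Ccl4 at 0.69 (49.4 to 79.6), Nfkbia at 0.19 (other probe sets from 0.11 to 0.56) and Irf1 at 0.01, and with Tnf, Il6, Ptgs2, Ccl2, Cxcl2, Ccl3 and Tnfaip3 at the floor on both arrays. That median ranged from 0.03 with the pseudocount to 0.29 on second probe sets. The p53 targets had a median of 0.19 over 11 and none at 1.5-fold, with Ccng1 at 0.06 (-0.24 and -0.03 on its other probe sets) and Plk2 at -0.07. Their median was 0.04 over the median of each gene's probe sets. On the ATF4 and CHOP list the median was 0.02 over 14 genes, and it turned to between -0.02 and -0.00 with median centring, quantile, loess and second probe sets. On that list, 8 genes were above and 6 below equality (background 54.9% and 45.1%). Its 2 genes at least 1.5-fold higher (background 4.19%) were Ddit3, which encodes CHOP (108.1 to 169.7, 0.65), and Vldlr (54.7 to 86.6, 0.66). Vldlr lay near the floor of 39.8 in the wild type. The lowest ratios were those of Chac1 (-0.49) and Trib3 (-0.44). Some genes stand on more than 1 of these lists.

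**Figure D4:**
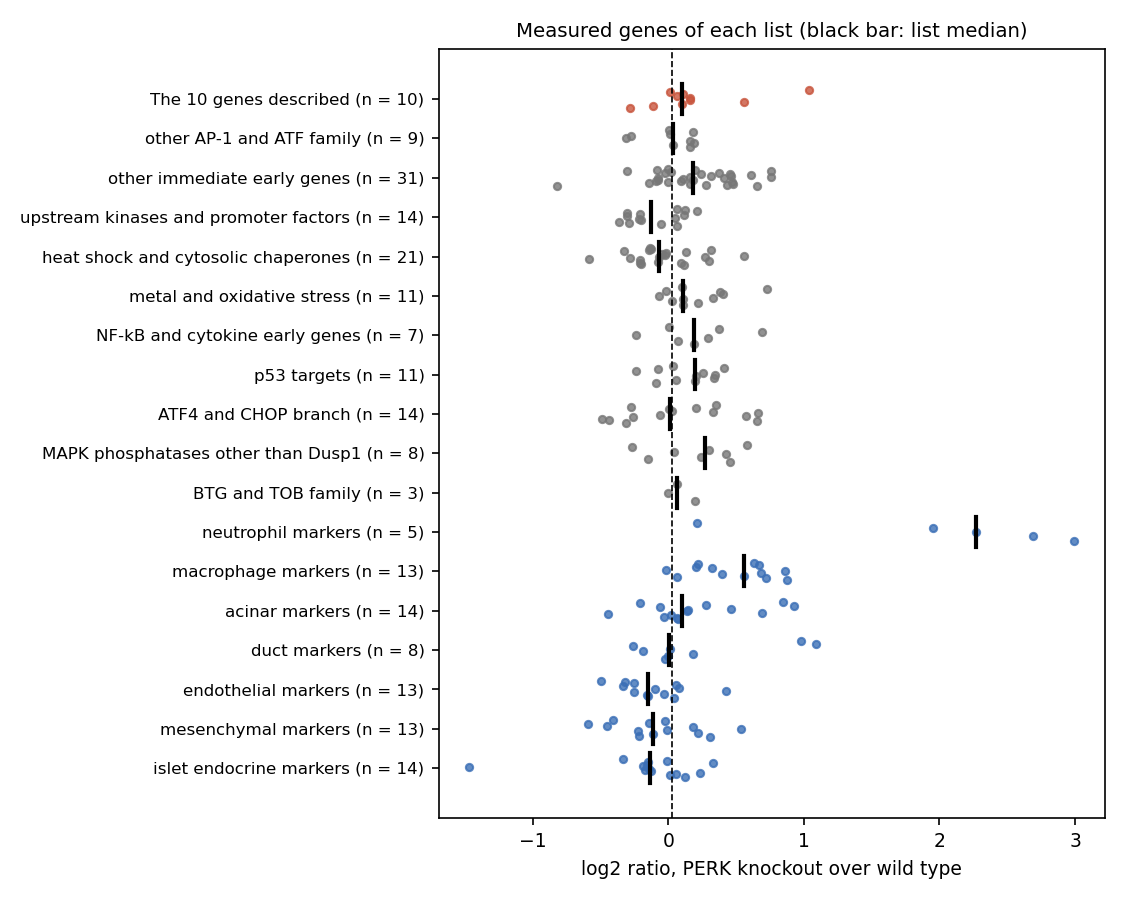
log2 ratio of PERK knockout over wild type for the measured genes of each list (points), with list medians as black bars and the median of all measured genes (0.03) as a dashed line; red marks the 10 genes, grey related lists and blue cell type markers. Medians of the related lists lie between -0.13 and 0.27, while those of neutrophil (2.27) and macrophage (0.56) markers lie further right.

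White blood cells, which transcribe Fos, Junb and Dusp1 themselves, differed between the libraries by their markers. Of 12 neutrophil markers, 5 were measured, all above equality (background 54.9%), with a median log2 ratio of 2.27. A further 5 crossed the floor, 4 upward and Mmp8 downward. The calprotectin genes S100a8 and S100a9 were 7.98-fold and 6.44-fold higher. Summed signal over all 12 came to 600.2 for the wild type and 2658 for the knockout, with Cxcr2 and Csf3r at the floor on both arrays. Of 15 macrophage markers on the array, 13 were measured, 12 of them above equality (background 54.9%), with a median of 0.56. At least 1.5-fold higher were 6 (background 4.19%), among them C1qa (0.87), Lyz2 (0.86) and C1qb (0.72). C1qb gave 0.10 and 0.88 on its other 2 probe sets. Csf1r was level, from 308.9 to 323.7 (0.07, with -0.08 and -0.01 on its other 2 probe sets). Mrc1, at -0.02, was the 1 marker below equality. Summed signal of the macrophage markers was 1545 and 2282, and none was at the floor on both arrays. The part of these cells in the Junb, Hspa1b and other ratios was not tested.

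Marker medians of the other cells of the preparation lay closer to equality. Summed signals of the endocrine markers were 51507 and 50616, with a median of -0.13 over 14 genes (0.00 on second probe sets) and Pcsk1, the prohormone convertase, at -1.47. Such sums weigh bright probe sets most, such as Chga, at 7032.5 in the wild type, where the array maximum was 8132.9. Near-equal sums do not show equal cell content, and compression of signal near the maximum was not tested. Acinar markers summed to 39680 and 42915 (median 0.10 over 14). Of these, 10 were above and 4 below equality (background 54.9% and 45.1%). Pla2g1b, Reg1 and Ctrl were at 0.92, 0.85 and 0.69, Ctrc at -0.44 and Rbpjl at the floor on both arrays. Duct markers, 4 above and 4 below equality (background 54.9% and 45.1%), had a median of 0.00 over 8, which changed sign under several settings. Tspan8 was at 1.09 (0.57 and 0.65 on its other 2 probe sets), Car2 at 0.98, Muc1 at -0.26 and Cftr at the floor. Endothelial markers had a median of -0.15 over 13 (Esam -0.10, Plvap 0.08) and mesenchymal markers of -0.12 over 13 (Acta2 -0.60, Vim -0.01, Sparc -0.02). Their part in the ratios of the 10 genes was not tested either.

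**Figure D5:**
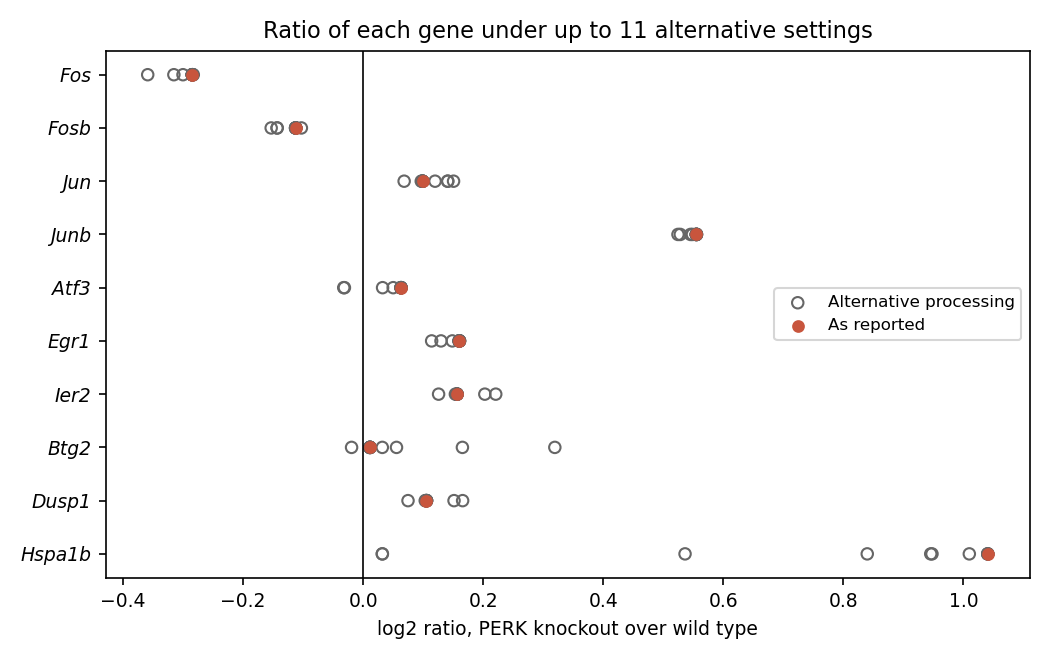
log2 ratio of PERK knockout over wild type for each of the 10 genes as reported (red) and under up to 11 alternative processing settings (open circles). Fos, Fosb and Junb stay in place, Atf3 and Btg2 cross equality, and Hspa1b ranges from 0.03 to 1.04. Fos, Fosb and Junb have a single probe set each, above every floor used, so only scaling or a pseudocount could move them.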

How the data were processed

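The authors deposited 1 linear signal intensity per probe set and array. Per the submitters' processing notes the software was GCOS 1.02; how background was removed, probes summarised or detection called is not stated there. The 2% trimmed mean of these intensities was 150.1 for each array, so rescaling the knockout array to the wild type changed nothing visible (factor 1.00). Probe sets were named from the platform annotation, and 20393 had 1 symbol. Of 12394 genes, 8134 were measured on the brightest probe set (highest mean over both arrays), 693 crossed the floor and 3567 were at it. Python 3.11.15 with numpy 2.4.6, pandas 2.3.3 and statsmodels 0.14.6 was used.

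Size limits of 1.5-fold and 2-fold stand in for a test. The members and lists were chosen with earlier results of these data known. Named genes are the 10 members with every probe set and, per list, up to 3 measured genes in each direction at least 1.5-fold apart, joined by the 2 brightest where fewer than 2 were. Id3, Arc, Trib1, Dusp14, Dusp16, Chac1, Trib3, Bag3, Csf1r, Mrc1, Ctrc, Muc1, Ccn1 and Ccn2 were named after their values were seen. Lists were matched by symbol, so genes listed under an older symbol, such as Ccn1 and Ccn2, were left out. With 2 arrays no gene was named for a like pattern. Protein sequences were not used here. The steps were tested on simulated data with planted changes well past 2-fold and independent errors. That does not bear on the smaller ratios given here, nor on errors that probe sets of an array share.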

Additional observations from a re-analysis of the deposited data

How the results depend on the processing

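Of 11 alternatives, 4 changed the scaling (none, a shift to a median of 0, quantile and loess), 3 the treatment of low signals (floor at the 25th or at the 60th percentile, or a pseudocount of 16 and no floor) and 4 the probe set (median of a gene's probe sets, no _x_at or _s_at types, the second brightest where a gene had one or, chosen after seeing the data, the brightest in the wild type). The median of the 10 genes stayed between 0.07 and 0.14, and the count of those at least 1.5-fold lower stayed at 0. The 1 gene at least 1.5-fold higher became 0 with the floor at the 60th percentile, where Hspa1b has a bound, with the median over probe sets (Hspa1b 0.54) with the second brightest probe set (Hspa1b 0.03, Btg2 0.32) and with the probe set brightest in the wild type (Hspa1b 0.03). The neutrophil median of 2.27 became 1.08 and 2.84 with floors at the 25th and 60th percentiles and 0.82 with the pseudocount, settings that change which markers count as measured. Counts over all genes at 1.5-fold, 341 higher and 240 lower, became 579 and 359 with the floor at the 25th percentile, 135 and 131 at the 60th and 581 and 415 with the pseudocount. At 2-fold, 42 and 53 became 81 and 80, 13 and 28, and 88 and 78. No paired analysis was possible because each group has 1 array, and no replicate could be left out. Dim signals limit Hspa1b and Atf3, and the number of arrays limits every value.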
